A study of Homo sapiens with 16 samples.

Results

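The 34 genes described here encode the steps that take glucose to pyruvate, pyruvate to lactate or into mitochondria, and the enzymes that set the rate of these steps. They were taken by name, in pathway order, from RNA tables of 59609 genes, and all 34 were found. Every group was labelled as Huh7, a human hepatocellular carcinoma line. Doses, times and how MT1G was driven were not given in the sources used here. Polyadenylated RNA was sequenced from cells treated with Sorafenib, a multikinase inhibitor used against liver cancer, and from cells treated with its vehicle DMSO (3 libraries each). A separate experiment compared cells overexpressing MT1G, a small zinc-binding metallothionein (MT1G-OE), with cells carrying an empty vector (Vec, 3 libraries each). ATAC-seq, which maps open chromatin, covered 2 Sorafenib and 2 DMSO libraries of the same line. Values are normalized read counts, and the RNA tables of the experiments were scaled separately. Nothing in the labels says that replicates came from separate cultures, so p-values measure the spread between these libraries, which may be technical.

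The libraries held between 16549330 and 26781600 reads in genes. The targeted gene MT1G ran from 130 to 179 normalized reads in MT1G-OE cells and had 0 reads in Vec cells, and it ran from 158 to 194 with Sorafenib against 0 reads with DMSO. The labelled cell type was not borne out by its markers. Of 18 hepatocyte and hepatoma markers, 17 averaged under 10 normalized reads in both experiments, with ALB and GPC3 at 0 reads in all 12 libraries, and AFP at no more than 7 reads over any group. Only HNF4A was tested, and it changed by -1.56 (log2) with Sorafenib and by -0.59 in MT1G-OE cells. The summed level of these markers ran from 103 to 163 with Sorafenib against 339 to 356 with DMSO, and from 207 to 237 in MT1G-OE cells against 307 to 345 in Vec cells. Of 7 fibroblast and stellate markers 5 were tested, and 2 fell and 1 rose with Sorafenib, while 2 rose in MT1G-OE cells. Their sum ran from 1039 to 1079 with Sorafenib against 2338 to 2591 with DMSO, and from 2644 to 3475 in MT1G-OE cells against 2159 to 2206 in Vec cells. Most of both differences came from LUM (mean 447 with Sorafenib and 1780 with DMSO, 2083 in MT1G-OE cells and 1502 in Vec cells). With Sorafenib and DMSO, COL1A1 averaged 440 and 464, with overlapping groups, and COL3A1 averaged 97.0 and 53.2. Of 4 biliary markers 2 were tested, KRT7 and EPCAM. The biliary sum ran from 17547 to 18984.5 with Sorafenib against 16054 to 18307 with DMSO. In MT1G-OE cells it ran from 20172 to 24136 against 16367 to 17794 in Vec cells. Most of these reads came from KRT7 (mean 17737 with Sorafenib and 16568 with DMSO), while EPCAM averaged 312 and 592. The 2 genes went in opposite directions in MT1G-OE cells. KRT7 averaged 21303 there against 16351 in Vec cells (log2 change 0.38), and EPCAM averaged 433 against 622 (-0.53). Sums of endothelial and leukocyte markers were at most 79.7 and 42.6 in any library. The part of these markers in the results below was not tested. In these bulk samples, fewer cells of a type and less RNA per cell cannot be told apart.

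Glycolysis begins when glucose transporters admit glucose and hexokinases trap it as a phosphate. Phosphofructokinase commits it to breakdown under the control of fructose 2,6-bisphosphate, and the later enzymes yield ATP and pyruvate. Pyruvate is then either reduced to lactate and exported, or carried into mitochondria and oxidised by the pyruvate dehydrogenase complex, which its kinases switch off. Many of these genes are textbook targets of the oxygen-sensing factor HIF1 and of MYC, and tumour cells often run the pathway to lactate even in oxygen.

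With Sorafenib, transcripts of nearly the whole pathway were lower than with DMSO. Of the 34 genes 29 fell, 3 rose and 2 did not pass the test (limma on log2 values, Benjamini-Hochberg adjusted p under 0.05 over 14915 genes). Across all genes tested, 35.8% fell and 34.4% rose. Among the 4294 genes with a mean of at least 1000 normalized reads, to which 22 of the 34 belong, 57.1% fell and 21.8% rose. The median log2 change of the 34 genes was -0.55, against -0.02 for all genes tested and -0.23 for the abundant ones. The 5 largest falls were those of the lactate exporter SLC16A3, the glucose transporter SLC2A3, the regulator PFKFB4, the kinase PDK3 and lactate dehydrogenase A (LDHA), from -1.74 to -1.17. The 3 that rose were PFKFB2, PFKFB3 and PDK4, which encode regulators of the pathway and no enzyme on its main line. The 32 genes past the threshold were also the 32 whose groups of libraries did not overlap, against 35.8% of all genes higher and 37.2% lower without overlap.

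**Figure D1:**
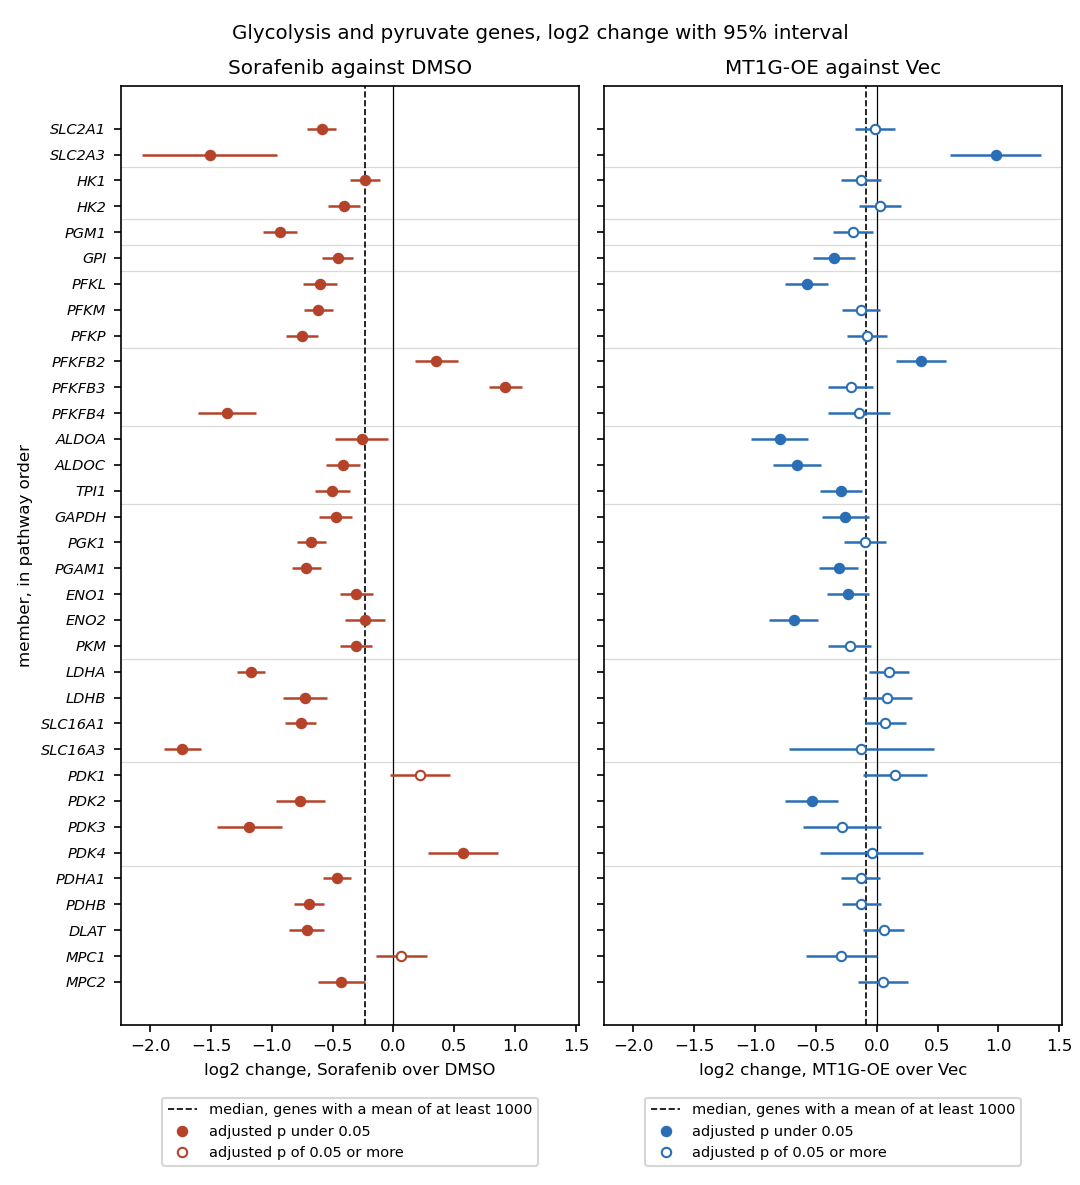
Log2 change (x axis) of the 34 genes in pathway order (y axis, top to bottom), Sorafenib over DMSO in the left panel and MT1G-OE over Vec in the right panel, with 95% intervals from limma and 3 libraries per group. Filled points passed an adjusted p of 0.05, the dashed lines mark the medians of genes averaging at least 1000 (-0.23 and -0.08), and 29 genes fell with Sorafenib against 10 in MT1G-OE cells.

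The amount of change depended on how libraries were scaled. When libraries were scaled to their total reads, a choice made after seeing the data, the median of all genes moved by 0.22 to 0.20 and the share of called genes that were higher moved from 49% to 66.1%. On that scale 24 of the 34 genes fell and 5 rose, against 23.5% and 45.7% of all genes. Their median was -0.32, and its distance from the median of all genes was -0.523, against -0.525 with the authors' scaling. HK1, ALDOA, ENO1, ENO2 and PKM then lost their calls, while PDK1 (0.44, limma adjusted p = 0.00723) and MPC1 (0.29, adjusted p = 0.0176) gained them. The share of all reads in genes uses no scaling factor, but it divides by the total reads of a library. It is therefore no check separate from scaling to total reads, and abundant genes weigh most in it. Without GAPDH the share averaged 1.206% with Sorafenib and 1.504% with DMSO. The 34 genes took 1.603% ± 0.0321 of reads with Sorafenib and 1.978% ± 0.0595 with DMSO (SD, n = 3 each), and the groups did not overlap (exact permutation p = 0.1, the smallest that 3 against 3 allows).

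Open chromatin at the starts of these genes was present in both treatments. The RefSeq promoter table (GRCh38.p14) held 31 of the 34 genes, and 28 of them (90.3%) had a peak overlapping a window of 250 bases before to 50 after a start in all 4 ATAC-seq libraries, against 87.2% of 10374 genes. Counting a gene as open where any of its starts was, none of the 31 was open in both Sorafenib libraries alone or in both DMSO libraries alone, against 0.308% and 0.733% of genes. Of the 3 listed starts of ALDOA, 2 had no peak in either Sorafenib library and a peak in both DMSO libraries (fold 3.81 and 3.74), while the other was open in all 4 libraries. GAPDH and PGAM1 lacked a peak in DMSO replicate 1, and PFKL lacked one in Sorafenib replicate 4 and DMSO replicate 1. Over the gene spans with 2 kb on each side, 118 open regions were shared by all 4 libraries. Regions open in both Sorafenib libraries and no DMSO library numbered 4, lying in SLC2A1, HK1, PFKFB4 and PDK1 (11.8% of the 34 genes against 17.7% of 13276 genes). Regions open in both DMSO libraries alone numbered 20 over 13 genes (38.2% against 32.9% of genes), with 3 each in PFKFB2, PFKFB3 and PDK1. Peaks covered 54548474 and 52324430 bases in the Sorafenib libraries and 71892695 and 76885603 bases in the DMSO libraries, so that the libraries differed in covered length. With 2 libraries per group these counts carry no test.

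The promoters of 5 genes are printed to show what these open starts hold: LDHA and SLC16A3, which fell most among the lactate genes, PFKFB4 and PFKFB3, which moved in opposite directions with Sorafenib, and PGK1, a main-line enzyme. Each is the 250 bases before a start whose window was open in all 4 libraries, 5′ to 3′ on the gene's strand, from RefSeq (GRCh38.p14). For LDHA and PFKFB3 both listed starts were open in all 4 libraries, and the start with more of the matches described next was printed. The matches shown for these genes were thus selected for. Capitals mark ACGTG or GCGTG on either strand, the core that HIF1 is known to bind, and where it continues as CACGTG also the E-box that MYC is known to bind.
LDHA, chr11:18394313-18394562, plus strand: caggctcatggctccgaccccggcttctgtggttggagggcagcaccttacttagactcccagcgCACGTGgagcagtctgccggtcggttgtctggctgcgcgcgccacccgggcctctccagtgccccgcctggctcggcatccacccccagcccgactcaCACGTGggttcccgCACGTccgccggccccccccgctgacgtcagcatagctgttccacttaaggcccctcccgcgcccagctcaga
SLC16A3, chr17:82228185-82228434, plus strand: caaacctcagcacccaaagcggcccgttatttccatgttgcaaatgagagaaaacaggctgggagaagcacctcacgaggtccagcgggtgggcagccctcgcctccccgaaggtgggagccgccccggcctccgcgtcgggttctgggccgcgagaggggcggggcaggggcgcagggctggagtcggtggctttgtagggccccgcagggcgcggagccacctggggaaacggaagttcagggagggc
PFKFB4, chr3:48556804-48557053, minus strand: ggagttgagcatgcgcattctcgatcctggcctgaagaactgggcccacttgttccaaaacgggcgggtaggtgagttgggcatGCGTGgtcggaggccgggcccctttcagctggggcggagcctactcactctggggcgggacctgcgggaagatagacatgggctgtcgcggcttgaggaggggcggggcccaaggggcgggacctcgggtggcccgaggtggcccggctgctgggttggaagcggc
PFKFB3, chr10:6202682-6202931, plus strand: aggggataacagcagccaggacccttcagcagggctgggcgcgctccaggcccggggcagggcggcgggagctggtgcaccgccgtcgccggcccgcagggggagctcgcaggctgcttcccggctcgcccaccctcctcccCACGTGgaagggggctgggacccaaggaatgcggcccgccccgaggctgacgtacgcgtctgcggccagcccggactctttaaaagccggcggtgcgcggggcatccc
PGK1, chrX:78103998-78104247, plus strand: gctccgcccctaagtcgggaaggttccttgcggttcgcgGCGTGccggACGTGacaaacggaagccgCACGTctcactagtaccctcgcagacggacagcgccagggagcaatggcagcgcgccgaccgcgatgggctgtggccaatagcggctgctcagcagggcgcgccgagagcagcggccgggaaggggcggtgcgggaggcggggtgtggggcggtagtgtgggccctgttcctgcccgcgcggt
The LDHA window held 3 marked places, of which 2 read CACGTG. Fold enrichment over background at its peak, the authors' value, was 7.18 and 6.57 in the Sorafenib libraries and 9.47 and 11.67 in the DMSO libraries. The other listed LDHA start was also open in all 4 libraries. Its fold was 13.7 and 12.34 with Sorafenib and 8.94 and 11.64 with DMSO. The SLC16A3 window held no match, while 3 of its other 4 listed starts, none of them open in all 4 libraries, held ACGTG or GCGTG. Its fold enrichment was below that of LDHA in all 4 libraries, at 3.28 and 2.62 with Sorafenib and 3.67 and 3.90 with DMSO. The PFKFB4 window held 1 GCGTG and the PFKFB3 window 1 CACGTG, so that the gene that fell and the gene that rose both held a match. Across the 63 listed starts of the 31 genes, ACGTG was found before 34.9% of starts, GCGTG before 33.3% and CACGTG, which contains ACGTG, before 12.7%. The same shares over all 35116 starts of 27305 genes were 18.5%, 32.2% and 6.34%. Only 10374 of those genes had enough reads to be tested with Sorafenib, whereas all 31 did, so the sets compared are unlike. Several starts of one gene share sequence, and a match is a description of the letters and no measured binding site.

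At the entry of the pathway, both glucose transporters fell with Sorafenib. SLC2A1, which encodes the widespread transporter GLUT1, had 3662, 3611 and 3782 normalized reads with Sorafenib, against 5362, 5523 and 5752 with DMSO (log2 change -0.59, SE 0.0557, limma adjusted p = 9.86e-08). SLC2A3, for the high-affinity transporter GLUT3, had 16.04, 15.40 and 17.09 against 42.7, 65.6 and 39.3 (-1.51, SE 0.263, adjusted p = 8.28e-05). The groups of both genes stood apart. SLC2A3 rested on 52 reads over the Sorafenib libraries and 142 over the DMSO libraries. Its near copy SLC2A14 had 10 and 0 reads, and reads of such copies may be split between them.

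The hexokinases, which phosphorylate glucose, fell less. HK1 had 2114, 2222 and 2079 with Sorafenib against 2566, 2538 and 2454 with DMSO (-0.24, adjusted p = 0.00167), and HK2, the inducible form, had 1623, 1666 and 1608 against 2279, 2205 and 2028 (-0.41, adjusted p = 2.1e-05). PGM1, which links glucose 6-phosphate with glycogen, fell further than either. It had 1224, 1159.7 and 1271 against 2301, 2204 and 2490.4, so that Sorafenib libraries held 52.3% of the DMSO level on the log scale (-0.94, SE 0.0658, adjusted p = 2.74e-09).

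The genes that make and control the phosphofructokinase step did not move together. The 3 isozymes of the committing enzyme all fell without overlap. PFKL, the liver form, had 3386, 3157 and 2991 with Sorafenib against 4761, 4524 and 5192 with DMSO (-0.60). PFKM, the muscle form, had 3211, 3263 and 3057 against 4946, 4708 and 4970.0 (-0.62), and PFKP, the platelet form, had 5125, 4639.9 and 4569.6 against 8062, 7662 and 8450.2 (-0.75, SE 0.0619, adjusted p = 1.82e-08).

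The bifunctional enzymes that make and break fructose 2,6-bisphosphate, the activator of that step, split by isozyme. PFKFB3, whose product mainly synthesises the activator, had 1865, 1919.9 and 1782 with Sorafenib against 928, 1029 and 984 with DMSO, and every Sorafenib library was above every DMSO library (0.92, SE 0.0652, adjusted p = 2.99e-09). PFKFB2, the form known from heart, had 902, 913 and 822 against 721, 735 and 613 (0.35, adjusted p = 0.00115). PFKFB4 had 224, 247 and 264 against 584, 768 and 567, the lowest DMSO library being above 2 times the highest Sorafenib library (-1.37, SE 0.112, adjusted p = 1.69e-08).

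Apart from the phosphofructokinase step and its regulators, given above, all genes from the isomerase GPI to pyruvate kinase fell, by between 0.24 and 0.72 on the log2 scale. The splitting and isomerase steps fell by 0.42 (ALDOC), 0.50 (TPI1) and 0.46 (GPI) on the log2 scale. ALDOA had 272, 298 and 264 with Sorafenib against 299, 326 and 379 with DMSO, groups that nearly touched (-0.26, adjusted p = 0.0332). Its call was lost without Sorafenib replicate 1 or 3 (adjusted p = 0.0839 and 0.106) or DMSO replicate 3 (0.137), and with edgeR (0.0523) or DESeq2 (0.0823). The gene AC093512.2, annotated at the same locus, had 121 to 172 with Sorafenib against 79.9 to 97.1 with DMSO, and reads in overlapping genes may be assigned to either.

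From GAPDH to pyruvate kinase, the ATP-yielding phosphoglycerate kinase PGK1 and the next enzyme, the mutase PGAM1, fell furthest. PGK1 averaged 23924 ± 357 with Sorafenib and 38252 ± 1867 with DMSO (SD, n = 3 each), a log2 change of -0.68, and PGAM1 averaged 6929 ± 97.9 and 11389 ± 519, a change of -0.72. GAPDH, often used as a reference gene, averaged 70492 ± 2635 with Sorafenib and 98224 ± 8482 with DMSO (-0.48, SE 0.0651, adjusted p = 6.72e-06). The last steps to pyruvate changed little more than other abundant genes. ENO1 changed by -0.31 and PKM by -0.31, near the median of abundant genes of -0.23. ENO2, the form known from neurons, had 678, 618 and 680.3 against 712, 808 and 809 (-0.24, adjusted p = 0.0134), and its call was lost without Sorafenib replicate 2 (adjusted p = 0.08).

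All 4 lactate genes fell, with a median log2 change of -0.97. LDHA, which reduces pyruvate to lactate, had 18372, 19375 and 18642 with Sorafenib against 42680.2, 43223 and 41289 with DMSO, an average of 18796 ± 519 against 42397 ± 998 (SD, n = 3 each). The Sorafenib libraries therefore held 44.3% of the DMSO level (-1.17, SE 0.0543, limma adjusted p = 1.65e-11). LDHB, which favours the return of lactate to pyruvate, had 507, 567 and 484 against 886, 917 and 784 (-0.73, adjusted p = 1.05e-06). SLC16A3, for the lactate exporter MCT4, had 2439.9, 2127 and 1964 against 7108, 7109 and 7471, and fell to 30.0% of DMSO (-1.74, SE 0.0711, adjusted p = 4e-12). SLC16A1, for the transporter MCT1, had 3354, 3440.3 and 3348 against 5843, 6037 and 5344 (-0.76, adjusted p = 9.59e-09). No Sorafenib library reached a DMSO library for any of the 4. An antisense gene, SLC16A1-AS1, averaged 473 with Sorafenib and 285 with DMSO, and the strand setting of the counting was not given in the sources used here, so reads of the pair cannot be told apart. In the authors' deposited table the log2 changes were -1.17 for LDHA, -1.73 for SLC16A3 and 0.92 for PFKFB3.

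**Figure D2:**
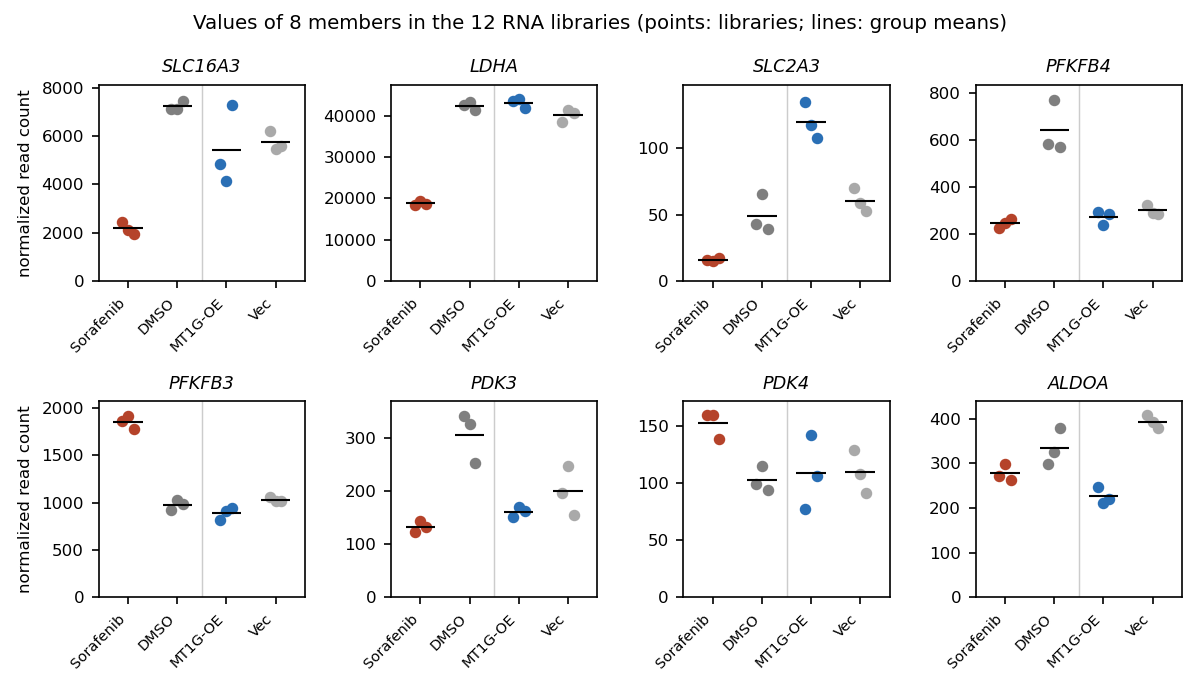
Normalized read counts (y axes, each starting at 0) of 8 genes in the 12 RNA libraries, by group (x axes), with lines at the group means. The experiments left and right of the grey line were scaled separately, and the Sorafenib libraries lay below every DMSO library for SLC16A3, LDHA, SLC2A3, PFKFB4, PDK3 and ALDOA and above them for PFKFB3 and PDK4.

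The kinases that switch off pyruvate dehydrogenase went in different directions with Sorafenib. PDK3 had 123, 144 and 133 with Sorafenib against 342, 327 and 253 with DMSO (-1.19, SE 0.126, adjusted p = 3.73e-07), and PDK2 had 322, 329 and 321 against 516, 510.0 and 639.5 (-0.77, adjusted p = 2.23e-06). PDK4, the form known to be induced by fasting, had 159.5, 159 and 139 against 99.0, 115 and 93.9, above DMSO in every library (0.57, SE 0.134, adjusted p = 0.00123). PDK1, a known HIF1 target, had 504, 528 and 565 against 375, 561 and 455, and DMSO replicate 2 lay inside the Sorafenib range (0.22, adjusted p = 0.107). Without DMSO replicate 2 PDK1 was called higher (0.36, adjusted p = 0.00498).

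The members that encode the complex these kinases act on all fell. Its E1 subunits PDHA1 and PDHB changed by -0.47 and -0.69. PDHA1 had 4278, 4470.4 and 4349.6 with Sorafenib against 6001, 6141 and 5955 with DMSO, and PDHB had 1598, 1713 and 1649 against 2728, 2742 and 2562. DLAT, the E2 core, had 989, 928 and 1037 against 1562, 1693 and 1592 (-0.71, SE 0.0669, adjusted p = 8.93e-08). The mitochondrial pyruvate carrier is a pair of proteins, and its genes differed. MPC1 had 262, 292 and 290.5 against 278, 245 and 285, with overlapping groups (0.06, 95% interval -0.15 to 0.28), whereas MPC2 had 536, 529 and 471 against 641, 649 and 787 (-0.43, adjusted p = 0.000513).

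In MT1G-OE cells fewer of the genes passed the test, and none of the 4 lactate genes did. Of the 34 genes 10 fell, 2 rose and 22 did not pass the test, against 11.3% of 13914 genes lower and 11.5% higher. Among the 4257 genes with a mean of at least 1000, 21.4% fell and 9.84% rose. The median log2 change of the 34 genes was -0.13, against a median within 0.0001 of 0 for all genes tested and -0.08 for the abundant ones. Without overlap between groups 15 were lower and 3 higher, against 20.5% and 18.9% of all genes. The genes that fell were PDK2 and part of the middle of the pathway, from GPI to enolase. Of the main-line enzymes in that stretch, PFKM, PFKP and PGK1 did not pass the test. PGK1 changed by -0.10 (limma adjusted p = 0.411), with overlapping groups. Scaling to total reads moved the share of called genes that were higher from 50.5% to 67.8%, and 8 of the 34 genes then fell and 2 rose, against 6.78% and 14.3% of all genes. Without Vec replicate 2 the genes called lower numbered 6 of 34 and 824 in all, and without Vec replicate 3 the genes called higher numbered 1 of 34 and 1007 in all. The 34 genes took 1.914% ± 0.0803 of reads in MT1G-OE cells and 2.074% ± 0.0487 in Vec cells (SD, n = 3 each), without overlap (exact permutation p = 0.1, the smallest possible).

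The strongest rise in MT1G-OE cells was that of the transporter SLC2A3. It had 135, 117 and 108 normalized reads in MT1G-OE cells against 70.2, 59.1 and 52.5 in Vec cells, from 384 and 175 reads (0.98, SE 0.179, limma adjusted p = 0.000556). SLC2A1 had 5481, 4773 and 4909 against 5059, 5119 and 5101, and the Vec libraries lay within the MT1G-OE range (-0.01, 95% interval -0.17 to 0.15, with a sign that changed under 2 other scalings). The hexokinases had overlapping groups, with HK1 at -0.13 and HK2 at 0.03. PGM1 was below Vec in every library without passing the test (-0.19, adjusted p = 0.0818).

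PFKL alone fell among the phosphofructokinases, with 3269, 2862 and 3614 in MT1G-OE cells against 4880.4, 4715 and 4873 in Vec cells (-0.58, SE 0.085, adjusted p = 6.14e-05). PFKM had 4843, 4461 and 4876 against 5203, 5216 and 5051 (-0.13), and PFKP had 7877, 6879.8 and 7725 against 7726, 7947 and 8077 (-0.08), neither past the threshold. PFKFB2 rose, with 739.5, 783 and 896 against 669.9, 624 and 583 (0.36, adjusted p = 0.0112), and lost its call without Vec replicate 3 (adjusted p = 0.0787). PFKFB3 had 817, 914 and 945 against 1060.3, 1021 and 1019, lower in every library but not called (-0.21, adjusted p = 0.0824). PFKFB4 overlapped, with 295, 237 and 283 against 323, 291 and 286.

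ALDOA, ENO2 and ALDOC fell furthest in MT1G-OE cells. ALDOA had 247, 212 and 221 in MT1G-OE cells against 409, 392 and 380.4 in Vec cells (-0.80, SE 0.113, adjusted p = 3.76e-05), and ALDOC averaged 659 ± 63.4 against 1038 ± 69.3 (SD, n = 3 each; -0.66). AC093512.2 at the ALDOA locus also fell here (-0.69, adjusted p = 0.0126). ENO2 had 457, 417 and 438 against 689, 668 and 754 (-0.68, SE 0.0959, adjusted p = 3.46e-05). GPI fell by 0.35, PGAM1 by 0.31 and TPI1 by 0.29 on the log2 scale, and TPI1 lost its call without Vec replicate 2 or 3 (adjusted p = 0.0656 and 0.0884), as PGAM1 did without Vec replicate 2 (0.0527).

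The calls of GAPDH (-0.26, adjusted p = 0.0484) and ENO1 (-0.24, adjusted p = 0.0447) stood at the threshold. ENO1 had 62819, 54196 and 56497 in MT1G-OE cells against 65543, 68195 and 70519 in Vec cells, all below. GAPDH had overlapping groups, with MT1G-OE replicate 1 at 106510.0 above Vec replicate 1 at 104213, and edgeR gave adjusted p = 0.0736 for GAPDH and 0.0674 for ENO1. PKM was lower in every MT1G-OE library without passing the test (-0.22, adjusted p = 0.0633), and passed it with DESeq2 (0.036).

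None of the 4 lactate genes changed past the threshold in MT1G-OE cells. LDHA had 43492, 43989.8 and 41764 in MT1G-OE cells against 38490.2, 41308 and 40619.6 in Vec cells, higher in every library but by less than the test could call (0.10, 95% interval -0.06 to 0.26). LDHB had 699, 742 and 866 against 721, 695 and 746 (0.09), and SLC16A1 had 5846, 6688 and 5834 against 5872, 6131 and 5471 (0.07), both with overlap. SLC16A3 had 4843, 4147 and 7293 against 6216, 5478 and 5586, and MT1G-OE replicate 3 stood above all Vec libraries while replicates 1 and 2 stood below them (-0.13, 95% interval -0.72 to 0.47). Without that library SLC16A3 was called lower (-0.36, adjusted p = 0.00255).

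Among the pyruvate dehydrogenase kinases PDK2 fell, with 471, 428 and 394 against 571, 687 and 617 (-0.53, SE 0.104, adjusted p = 0.00102). PDK1 had 468, 533 and 357 against 400.2, 423 and 385, and PDK4 had 77.5, 142 and 106 against 129, 108 and 91.0, both with overlap. PDK3 had 152, 169.8 and 163 against 197, 248 and 156 (-0.29, adjusted p = 0.191). Without MT1G-OE replicate 3 PDK1 was called higher (0.31, adjusted p = 0.0385). None of PDHA1, PDHB, DLAT, MPC1 and MPC2 passed the test, with log2 changes between -0.29 and 0.06. MPC1 had 284, 251 and 189 against 269.7, 295 and 312, and MPC2 had 645, 559 and 573 against 537, 566 and 615, both with overlap. Without MT1G-OE replicate 1 MPC1 was called lower (-0.42, adjusted p = 0.049).

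Of the 34 genes, 10 fell in both experiments, against 6.32% of the 13748 genes tested in both. They were GPI, PFKL, ALDOA, ALDOC, TPI1, GAPDH, PGAM1, ENO1, ENO2 and PDK2. With edgeR, ALDOA lost its call with Sorafenib (adjusted p = 0.0523), and GAPDH (0.0736) and ENO1 (0.0674) lost theirs in MT1G-OE cells. Genes averaging at least 1000 normalized reads fell more often than all genes in each experiment (57.1% with Sorafenib and 21.4% in MT1G-OE cells). PFKFB2 was the 1 gene that rose in both (4.02% of genes), and SLC2A3 the 1 that fell with Sorafenib and rose in MT1G-OE cells (4.44% of genes). No gene of the 34 did the reverse (2.17% of genes). The experiments share no library.

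The difference between the responses was tested directly, as the Sorafenib response minus the MT1G-OE response in a fit of all 12 RNA libraries scaled together. Of the 34 genes 18 had a negative difference, 4 a positive one and 12 did not pass the test, against 29.0% negative and 25.3% positive among 13748 genes. The median difference was -0.35 (log2), against -0.03 for all genes and -0.17 for those averaging at least 1000 normalized reads. Scaling to total reads moved the median of all genes by 0.14 and gave 17 negative and 6 positive, with the positive share of called genes at 59% against 46.5%. SLC2A3, which fell with Sorafenib and rose in MT1G-OE cells, differed most (-2.47, SE 0.301, limma adjusted p = 6.18e-07). All 4 lactate genes had a negative difference (SLC16A3 -1.35 without MT1G-OE replicate 3), from -0.80 for LDHB and -0.81 for SLC16A1 to -1.26 for LDHA (SE 0.0862, adjusted p = 1.29e-10) and -1.59 for SLC16A3 (SE 0.251, adjusted p = 0.000434). PFKFB4 (-1.20), PDK3 (-0.88) and DLAT (-0.75) were also negative. DLAT had 1532, 1689 and 1686 normalized reads in MT1G-OE cells against 1594, 1580.0 and 1537 in Vec cells.

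PFKFB3 had the largest positive difference (1.16, SE 0.103, adjusted p = 6.67e-09), and ALDOA (0.56) and ENO2 (0.47) were positive, with larger falls in MT1G-OE cells. PDK4 was called positive (0.63, adjusted p = 0.0425) but lost its call with TMM factors (0.067) and without any 1 of 8 libraries, among them MT1G-OE replicate 1 (0.41, adjusted p = 0.144). The 12 genes not past the threshold included PFKL (-0.01, 95% interval -0.23 to 0.22) and PFKFB2 (0.01, -0.26 to 0.28), which changed in the same direction in both experiments.

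**Figure D3:**
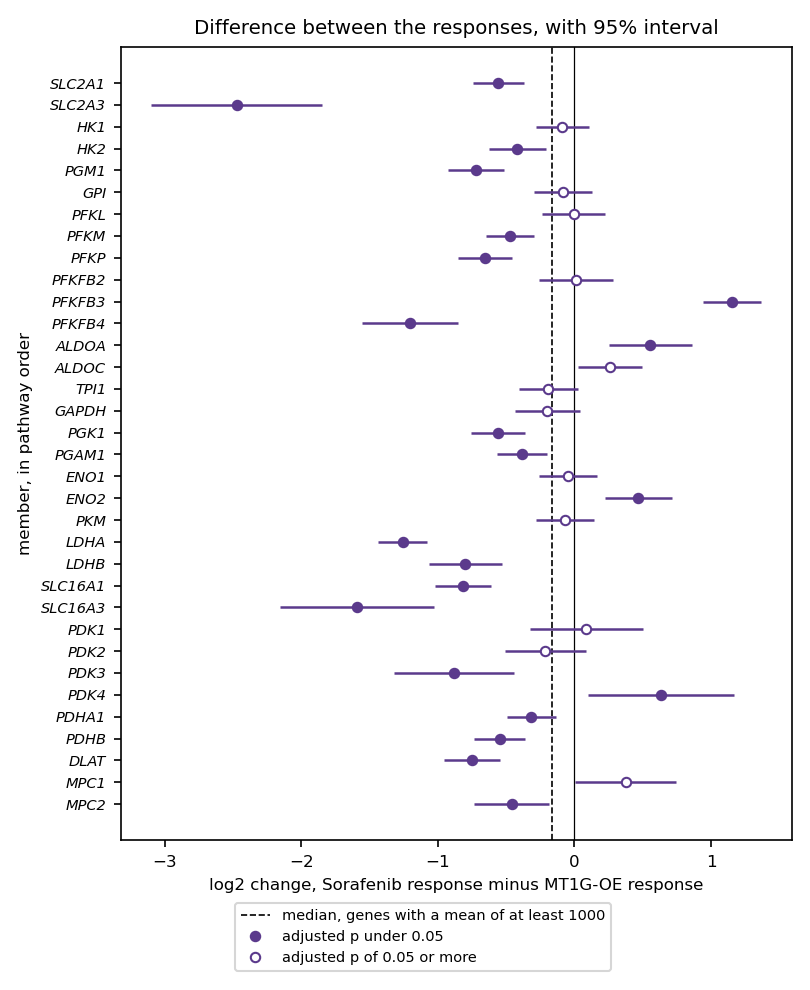
Difference between the log2 changes (x axis, Sorafenib response minus MT1G-OE response) of the 34 genes in pathway order (y axis), with 95% intervals from a limma fit of 12 libraries. Filled points passed an adjusted p of 0.05, the dashed line marks the median of genes averaging at least 1000 (-0.17), and all 4 lactate genes lay below 0.

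Ratios of related genes within a library, which are free of scaling between libraries, compared the make-up of single steps, and none could pass the threshold with 3 libraries per group. Of 15 ratios, 8 were lower and 3 higher with Sorafenib than with DMSO without overlap, each with an exact permutation p of 0.1, the smallest possible, and 0.136 after adjustment over the 15. The difference between Sorafenib and DMSO was -0.97 (log2) for SLC16A3 over SLC16A1, -0.44 for LDHA over LDHB and -0.92 for SLC2A3 over SLC2A1. PFKFB4 over PFKFB2 had the largest difference, at -1.84 ± 0.186 with Sorafenib and -0.12 ± 0.184 with DMSO (SD, n = 3 each). PDK4 over PDK2 was 1.34 higher, PDK1 over PDK2 0.98 higher and PFKFB3 over PFKFB2 0.57 higher. MPC2 over MPC1 was lower by 0.49, PDHB over PDHA1 by 0.23, HK2 over HK1 by 0.17 and PFKP over PFKL by 0.15.

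In MT1G-OE cells 5 ratios were higher and 3 lower than in Vec cells without overlap (exact permutation p = 0.1 each, 0.188 adjusted). SLC2A3 over SLC2A1 was 0.99 higher, PDK1 over PDK2 0.69 higher, PFKP over PFKL 0.49 higher, PFKM over PFKL 0.45 higher and MPC2 over MPC1 0.34 higher. The difference was -0.58 for PFKFB3 over PFKFB2, -0.51 for PFKFB4 over PFKFB2 and -0.45 for ENO2 over ENO1. The difference in these ratios between the experiments was not tested.

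**Figure D4:**
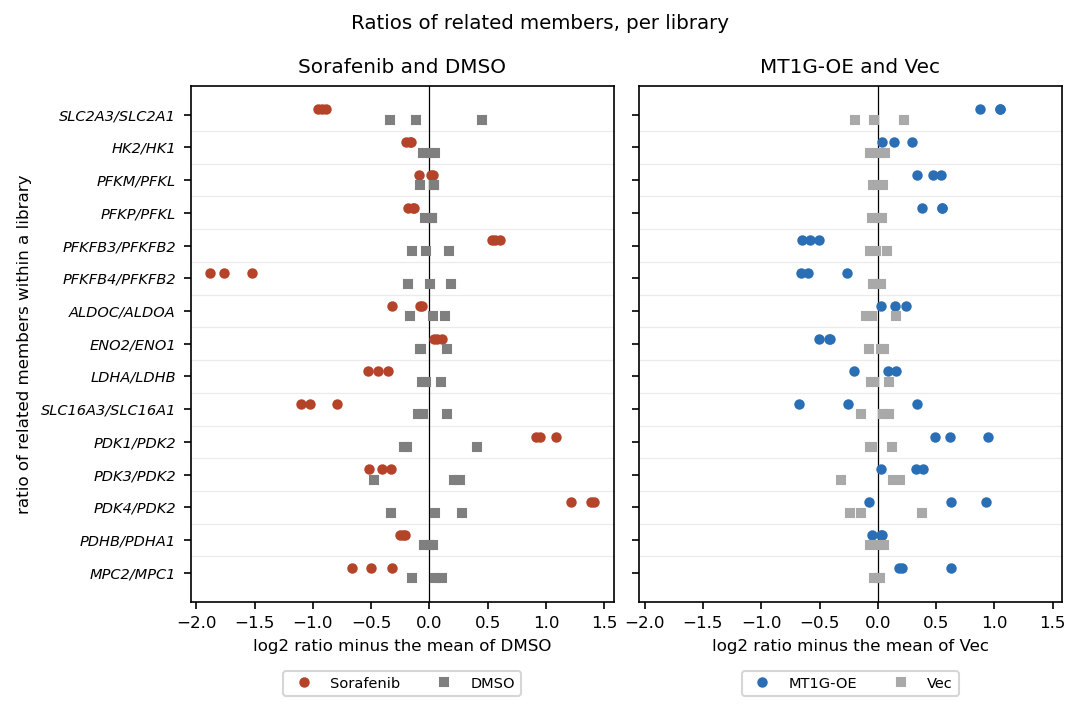
Log2 ratio of each of 15 pairs of related genes (y axis) in every library, minus the mean of DMSO in the left panel and of Vec in the right panel (x axis). Circles are Sorafenib or MT1G-OE libraries and squares DMSO or Vec libraries; SLC16A3 over SLC16A1 lies below 0 in the 3 Sorafenib libraries and on both sides of it in the MT1G-OE libraries.

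Other genes of carbohydrate metabolism, taken as lists, are set here against all genes tested, of which 35.8% fell and 34.4% rose with Sorafenib, and 11.3% fell and 11.5% rose in MT1G-OE cells. Among genes averaging at least 1000, 57.1% fell with Sorafenib and 21.4% in MT1G-OE cells. Of 7 genes of the pentose phosphate branch, which draws on glucose 6-phosphate for NADPH, 6 fell with Sorafenib and 5 in MT1G-OE cells, and none rose in either. The transketolase TKT changed by -0.67 with Sorafenib and by -0.33 in MT1G-OE cells. Of 10 tested genes of gluconeogenesis and glycogen 8 fell and none rose with Sorafenib, and 5 fell and 3 rose in MT1G-OE cells. The glycogen branching enzyme GBE1 changed by -0.74 with Sorafenib and by 0.25 in MT1G-OE cells. Pyruvate carboxylase PC fell in both, by 0.69 and 0.54, and so did glycogen synthase GYS1, by 0.70 and 0.29. The liver genes FBP1 and PKLR, named after their values were seen, averaged under 10 normalized reads and were not tested.

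Of the other parts of the pyruvate dehydrogenase complex and its phosphatases, 3 of 5 tested genes fell and 1 rose with Sorafenib (35.8% and 34.4% of all genes), and 1 rose in MT1G-OE cells (11.5%). The phosphatase PDP2 averaged 279 ± 28.9 with Sorafenib and 854 ± 22.95 with DMSO (SD, n = 3 each; -1.62, SE 0.0879, limma adjusted p = 1.23e-10), whereas the phosphatase PDP1 rose (0.63 with Sorafenib and 0.36 in MT1G-OE cells). These phosphatases are known to reverse what the PDK kinases do. Among 16 isozymes and other steps 7 fell and 4 rose with Sorafenib (35.8% and 34.4% of all genes), and 2 of the 7, ADPGK and PGM2, were above 0 when scaled to total reads. The genes that fell included the monocarboxylate transporter SLC16A7 (-1.11), the enolase ENO3 (-0.87) and the transporter chaperone BSG (-0.31), while the sugar transporter SLC2A8 rose (0.82). In MT1G-OE cells 3 of 15 fell, among them ENO3 (-0.44), and 1 rose.

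Of 20 tested regulators that sense oxygen and glucose, 9 fell and 8 rose with Sorafenib, against 35.8% and 34.4% of all genes (EPAS1, among the 9, was above 0 when scaled to total reads), and 5 fell and 1 rose in MT1G-OE cells. TXNIP and ARRDC4, arrestin relatives that restrain glucose uptake, rose by 1.73 and 1.83 (log2) with Sorafenib and changed by -0.51 and -0.84 in MT1G-OE cells. TXNIP averaged 8006 ± 145 with Sorafenib and 2416 ± 92.3 with DMSO, and 1599 ± 106 in MT1G-OE cells and 2275 ± 135 in Vec cells (SD, n = 3 each). HIF1AN, an inhibitor of HIF1, changed by -1.22 with Sorafenib and the coactivator PPARGC1B by -2.14. HIF1A, named after its values were seen, averaged 3264 ± 205 with Sorafenib and 1605 ± 179 with DMSO (1.03, adjusted p = 6.57e-09), and 1679 ± 275 in MT1G-OE cells and 1115 ± 28.4 in Vec cells (0.58, adjusted p = 0.00037). MYC, also named after its values were seen, averaged 12882.5 ± 255 with Sorafenib and 8443 ± 91.3 with DMSO (0.61, limma adjusted p = 3.68e-08). In MT1G-OE cells MYC averaged 10423 ± 498 against 11200 ± 570 in Vec cells (-0.10, limma adjusted p = 0.356). CA9, another known HIF1 target and a gene of the study's title, had 16 reads over the Sorafenib libraries against 821 over the DMSO libraries, and 65 in MT1G-OE cells against 178 in Vec cells.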

How the data were processed

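The 34 genes and the other gene lists were chosen with earlier results of these data known. The submitters' processing notes name hg38 and, with no role or order, MACS2 2.2.7.1 and Bowtie2 2.4.1, SAMtools and Picard, featureCounts 1.6.1 and HISAT2, DESeq2 and cutadapt. Settings were not given in the sources used here. The deposited RNA values are a signal, reads counted per gene divided by 1 size factor per library, in a separate table for each experiment. Columns named treatment or control were read as the group of the table's title and numbered as the replicates in the labels. The deposited comparison tables give log2 fold changes, a test score and p-values by the authors. The deposited ATAC-seq lists hold the peaks of each library, with a score, a fold enrichment ratio over local background at the summit and −log10 p and q.

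Dividing by each library's smallest step gave whole reads for 100% of values in every library (tolerance 0.001), so depth was known. Genes with a mean of at least 10 normalized reads over the 6 libraries of a table were tested with limma 3.58.1 (trend, robust; R 4.3.3) on log2(normalized read count + 1), which understates the change of low genes. All adjusted p-values are two-sided limma values with Benjamini-Hochberg adjustment over all genes tested unless another tool is named; the threshold was 0.05. Percentages of the reference level are on this log scale. The difference between responses was an interaction contrast over 12 libraries. Ratios and shares of reads were tested with a two-sided exact permutation test. Peaks that overlapped a start window by at least 1 base counted as open. The procedure was tested on simulated data in which few genes changed, as many up as down. That setting did not cover the dependence on scaling described above.

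Values in every library were given for members past the threshold with an absolute log2 change or difference of at least 0.75 and for steps whose isozyme ratio did not overlap between groups; other lists were given by counts and up to 4 genes with the smallest p. Alternatives were TMM factors, other pseudocounts (0.5, 5), no filter or a mean of at least 100, edgeR 4.0.16 and DESeq2 1.42.0 on the recovered reads, a replicate block and leaving out each library. Scaling to total reads was added after seeing the data. No length was used, so levels were not compared between genes. Some genes of the other lists are counted but not reported by name here.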

Additional observations from a re-analysis of the deposited data

Results flagged for a closer look

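For 22 of the 34 genes the response to Sorafenib differed from the response to MT1G overexpression in the interaction test of all 12 libraries (limma, adjusted p under 0.05), 18 negative and 4 positive, against 29.0% of all genes tested negative and 25.3% positive. The values below are log2 differences, the Sorafenib response minus the MT1G-OE response.

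At the entry of the pathway the differences were -0.56 for SLC2A1, -2.47 for SLC2A3, -0.42 for HK2 and -0.72 for PGM1. At the phosphofructokinase step they were -0.47 for PFKM, -0.65 for PFKP, -1.20 for PFKFB4 and 1.16 for PFKFB3. Among the later enzymes they were 0.56 for ALDOA, -0.56 for PGK1, -0.38 for PGAM1 and 0.47 for ENO2. At the lactate end they were -1.26 for LDHA, -0.80 for LDHB, -0.81 for SLC16A1 and -1.59 for SLC16A3. Around pyruvate dehydrogenase they were -0.88 for PDK3, 0.63 for PDK4, -0.31 for PDHA1, -0.55 for PDHB, -0.75 for DLAT and -0.46 for MPC2.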

How the results depend on the processing

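Counts of calls moved with the scaling, the filter and single libraries. With Sorafenib, a mean of at least 100 left 3372 genes called higher, and scaling to total reads gave 3500 genes called lower and 5 of the 34 higher. In MT1G-OE cells scaling to total reads gave 943 genes called lower, and a mean of at least 100 left 1 of the 34 higher. Without 1 library at a time, the MT1G-OE calls ranged from 1007 to 1818 genes higher and 764 to 2013 lower, and from 1 to 3 and 6 to 13 of the 34. The Sorafenib calls ranged from 4607 to 5281 and 4973 to 5393 genes, and from 3 to 4 and 28 to 29 of the 34. Calls on the difference ranged from 3 to 5 positive, with 18 negative in every case. The share of reads changed by -0.398 to -0.341 percentage points with Sorafenib and by -0.207 to -0.136 in MT1G-OE cells, and by -0.298 and -0.0930 without GAPDH.

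Small changes reversed. In MT1G-OE cells SLC2A1 was 0.0084 with TMM factors and 0.0537 with total reads, and PDK4 was 0.0247 with total reads. For the difference, total reads gave 0.0485 (HK1), 0.0519 (GPI), 0.132 (PFKL), 0.0889 (ENO1) and 0.0679 (PKM), edgeR gave 0.0277 (PFKL), and PFKFB2 was -0.0533 with TMM factors and -0.0095 with each table's own scaling. Leaving out 1 library gave ranges that crossed 0. These were -0.0019 to 0.1157 for MPC1 with Sorafenib. In MT1G-OE cells they were -0.0733 to 0.0265 for SLC2A1, -0.0350 to 0.0886 for HK2, -0.0004 to 0.1538 for LDHB, -0.3598 to 0.0473 for SLC16A3, -0.2552 to 0.1765 for PDK4 and -0.0142 to 0.1008 for MPC2. For the difference they were -0.0953 to 0.0766 for PFKL, -0.0750 to 0.0913 for PFKFB2, -0.0958 to 0.0142 for ENO1, -0.1174 to 0.0003 for PKM and -0.0721 to 0.2364 for PDK1. The cause was not tested. Requiring at least 0.5 of a peak's length inside the window left 0 of 31 genes open in all 4 libraries (3.89% of all genes). It left 2 open in the Sorafenib libraries alone (3.25% of all genes). A −log10 q of at least 5 left 1 gene open in the Sorafenib libraries alone (0.27% of genes).

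Deviations from group means of libraries with the same replicate number had correlations of -0.14, 0.03 and -0.22 for Sorafenib with DMSO. For MT1G-OE with Vec they were -0.34, 0.10 and -0.15. Between unequal numbers they ran from -0.25 to 0.32 and from -0.13 to 0.31. As the deviations were centred within small groups, these values cannot decide whether the numbers pair the libraries. With a replicate block 4992 genes were higher and 5201 lower with Sorafenib, with 3 and 29 of the 34, and 1691 and 1566 genes in MT1G-OE cells, with 2 and 8 of the 34.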
